A study of Homo sapiens with 6 samples.

Results

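The transcripts of 10 genes used as markers of stem-like cells in colorectal cancer were followed in HCT116 cells with and without a hairpin against STBD1. They were the 2 prominins PROM1 and PROM2, the surface proteins CD44, CD24, EPCAM and ALCAM, the receptor LGR4, the enzyme ALDH1A3, the transcription factor SOX9 and the chromatin protein BMI1. Each symbol matched 1 of the 58395 Ensembl genes in the deposited tables. The genes were chosen by name with the contrast between the hairpins already known, so their differences between the groups are given as a description. Where the number of them past the threshold of the fit over all genes is printed, the share of all tested genes stands beside it and nothing is read from it.

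HCT116 is a line of human colorectal carcinoma cells, and STBD1, the targeted gene, encodes a proposed adaptor of glycogen autophagy. RNA was sequenced from 3 libraries of cells that stably carried a lentiviral non-target hairpin (shControl) and 3 of cells with a lentiviral hairpin against STBD1 (shSTBD1). Both lines were infected and selected with a drug in the same way and received no other treatment. Each group rested on 1 hairpin, so a difference between the groups cannot be told apart from a difference between the hairpins.

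Prominins are glycoproteins that span the membrane several times and sit in microvilli and other protrusions of epithelial cells. PROM1, also called CD133, is used together with CD44, EPCAM and ALCAM to sort tumour-initiating cells from colorectal tumours, and high aldehyde dehydrogenase activity is used for the same purpose. SOX9, BMI1 and LGR4 are known from the base of the intestinal crypt, where WNT signals keep stem cells dividing.

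The libraries held from 17689097 to 21668274 expected counts, the number of reads that RSEM assigned to genes. STBD1 had 311, 327 and 255 counts in shControl and 212, 197 and 182 in shSTBD1, a log2 fold change of -0.64 ± 0.10 (SE, n = 3 against 3; adjusted p = 0.000291, edgeR quasi-likelihood F-test). Of 15566 genes with enough counts to be tested, 2453 passed an adjusted p of 0.05. Among 19 markers of blood, vessel, stroma and other tissues, 14 did not reach the counts needed for a test, and 0 of the other 5 passed (edgeR; also 0 at an unadjusted p of 0.05 and 0 with DESeq2). CD3E and PTPRC of leukocytes and the globin HBB had 0 counts in all 6 libraries, and the collagen COL1A1, with 594 to 877 counts, was the most abundant. The summed TPM of the 19 genes ran from 22.6 to 30.8 in shControl and from 24.6 to 29.7 in shSTBD1. The library shControl 1 stood farther from the other shControl libraries (chi-square per degree of freedom 5.87 and 4.72) than the libraries of any other pair of replicates did from each other (1.66 to 2.00).

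Short matches to the hairpins are shown first, since a hairpin can act on transcripts that pair with only the first bases of its guide strand. For a guide that starts opposite the last base of each hairpin sequence, the letters that pair with its bases 2 to 8 and 3 to 9 were sought after the stop codon of each gene's canonical transcript, on the transcript strand (GENCODE release 44, GRCh38). These letters are TGTCACG and GTGTCAC for shControl and GATTTCT and TGATTTC for shSTBD1, and the 2 matches of a hairpin share 6 letters. Of 13086 tested genes with such a stretch, 3.03% held TGTCACG, 9.78% GTGTCAC, 18.4% GATTTCT and 18.0% TGATTTC. Among the 10 genes, 0 held TGTCACG, 2 held GTGTCAC (PROM2 and LGR4), 3 held GATTTCT (ALCAM, BMI1 and CD44) and 3 held TGATTTC (ALCAM, CD24 and CD44). ALCAM held GATTTCT 4 times, the most of the 10 genes, and 38 of the 13086 genes (0.290%) held it at least 4 times. This share was taken for the gene with the most matches and was not adjusted for the length searched. That length was 2449 bases in ALCAM and ran from 407 (EPCAM) to 3069 bases (CD44), so nothing is read from the share. The 30 bases around each match to GTGTCAC and GATTTCT follow, with the match in capitals.
PROM2, chr2:95289451-95289480 (+ strand): agtccctccagGTGTCACcccttaccccca
LGR4, chr11:27367743-27367772 (minus strand): atcactgcctgGTGTCACttagaagaagga
ALCAM, chr3:105574721-105574750 (+ strand): tctgcactgagGATTTCTttttggtttgcc
ALCAM, chr3:105575760-105575789 (+ strand): cactgcacagcGATTTCTttcccaggattt
ALCAM, chr3:105575812-105575841 (+ strand): aatgaacatcaGATTTCTaggtatagaact
ALCAM, chr3:105576277-105576306 (+ strand): gtaaatactgtGATTTCTtttttattttct
BMI1, chr10:22330025-22330054 (+ strand): ctgtgaataacGATTTCTtgcatatttagc
CD44, chr11:35231155-35231184 (+ strand): tcagtggtctgGATTTCTttttattttctt
These stretches lie in the 3′ untranslated region of each gene, within 1 exon. Which bases of the guides were used in these cells, and whether any match was bound, was not tested.

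The levels of the 10 genes spanned a wide range in both groups. They were compared in TPM, which is per transcript length, and CPM per kilobase of effective length gave the same order of the means over all 6 libraries. CD44, the hyaluronan receptor, had the highest level, at 254 to 276 TPM over the 6 libraries, and the adhesion protein EPCAM came next at 169 to 183 TPM. ALDH1A3, which makes retinoic acid, had 67.7 to 73.9 TPM, and BMI1, a subunit of Polycomb repressive complex 1, had 48.2 to 61.8 TPM. The ranges of these 4 genes were separate from each other and from those below. ALCAM, an adhesion protein of the immunoglobulin family, had 24.0 to 29.5 TPM and overlapped with SOX9 at 19.7 to 25.7 TPM. PROM1 at 9.39 to 12.9 TPM overlapped with CD24, a small protein held by a lipid anchor, at 8.76 to 10.2 TPM. LGR4, a receptor for R-spondins, at 3.49 to 4.49 TPM overlapped with PROM2 at 2.40 to 4.75 TPM. LGR4 was above PROM2 in each shControl library (means of 3.90 and 2.66 TPM). In shSTBD1 the means lay close, at 4.06 TPM for LGR4 and 4.16 TPM for PROM2. There LGR4 was below PROM2 in shSTBD1 1 and shSTBD1 2 and above it in shSTBD1 3 (4.49 and 3.40 TPM). By mean TPM over the 6 libraries, 97.4% of all tested genes lay below CD44, 47.8% below PROM1 and 27.1% below PROM2.

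**Figure D1:**
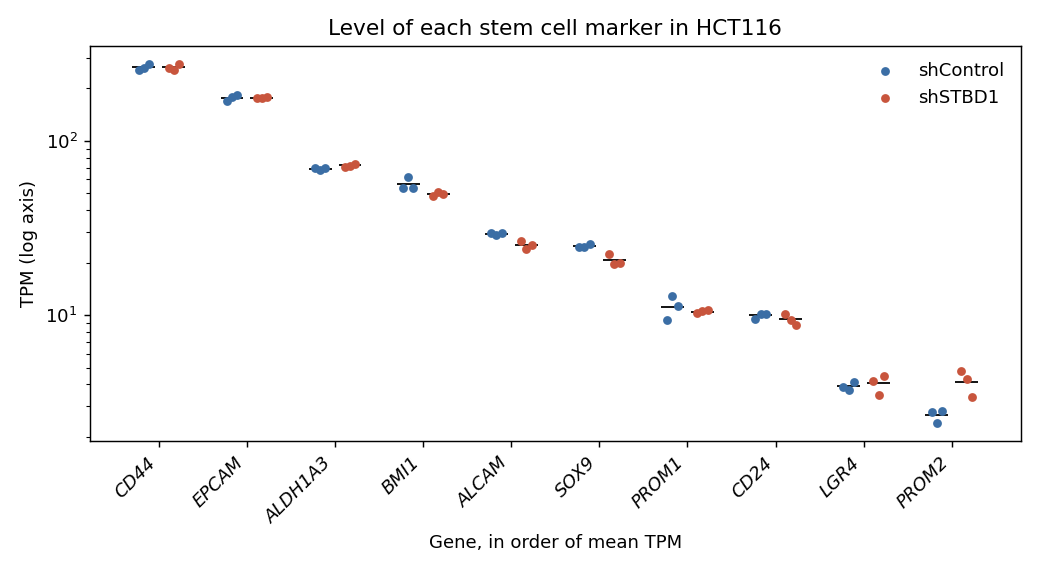
TPM of each of the 10 genes on a log axis, with 1 point per library (blue, shControl; red, shSTBD1) and a black line at the mean of each group of 3. CD44 and EPCAM lie at 169 TPM or more in all 6 libraries, and LGR4 and PROM2 lie lowest. The groups of PROM2, ALDH1A3, SOX9, BMI1 and ALCAM do not overlap in TPM.

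Between the groups, PROM2 stood out with a 2.46-fold higher count in shSTBD1, and no other of the 10 genes differed by more than 16.0%. PROM2 and ALDH1A3 were higher, SOX9, BMI1 and ALCAM were lower, and PROM1, CD44, CD24, EPCAM and LGR4 differed by -5.26% to 2.80%. The first 5 passed an adjusted p of 0.05 (edgeR), as 15.8% of all tested genes did. That was 2 of 10 in the higher direction, beside 8.22% of all genes, and 3 of 10 in the lower, beside 7.54%, and since the genes were chosen with this contrast known nothing is read from these counts. In CPM, counts scaled to library size, the groups did not overlap for 6 of the 10 genes, beside 33.6% of all tested genes. All 10 genes passed the filter on low counts, and their median log2 fold change was -0.02, beside 0.00 over all tested genes. In RNA from whole cultures, fewer cells of a type and less RNA per cell cannot be told apart.

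PROM2 (ENSG00000155066; chromosome 2 of GRCh38, 95274449 to 95291308, + strand) had 85, 111 and 77 counts in shControl and 208, 247 and 240 in shSTBD1. In CPM this was 4.41, 5.32 and 4.35 CPM against 11.4, 11.4 and 12.1 CPM. Each shSTBD1 library was thus above each shControl library, with a log2 fold change of 1.30 ± 0.11 (SE). That was the 18th largest among the 1280 genes called higher. In TPM the same libraries read 2.77, 2.40 and 2.80 against 4.75, 4.32 and 3.40. The TPM of the groups did not overlap either, but the means of 2.66 ± 0.22 and 4.16 ± 0.69 TPM (SD, n = 3) differed only 1.56-fold. PROM2 carried the letters GTGTCAC of the shControl hairpin, as did LGR4, whose log2 fold change was -0.01.

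The counts and the TPM of PROM2 are linked by its effective length, the mean length over which RSEM spreads the reads of a gene, weighted by the share of each transcript. This length was 1775, 2587 and 1779 bases in shControl and 2718, 2936 and 4001 bases in shSTBD1, again with no overlap. Its mean was 1.57-fold longer in shSTBD1, and 0.642% of all tested genes had a larger ratio between the groups in either direction. Those genes were not matched to PROM2 in counts or number of transcripts. The effective length of PROM2 rested on 77 to 247 counts per library. The library with the longest effective length, shSTBD1 3, had the highest CPM of its group and the lowest TPM. The deposited tables list 11 transcripts for PROM2, which are 235 to 4731 bases long in GENCODE release 44, and how the reads divided among them was not analysed here. With the effective lengths as offsets in the count model the log2 fold change was 0.66. On the log2(TPM + 1) scale it was 0.49, where the added 1 shrinks the ratio of a gene at this low TPM, and 0.62 on log2(TPM + 0.1). The other 9 genes had group means of effective length that differed by a log2 ratio between -0.08 and 0.08.

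**Figure D2:**
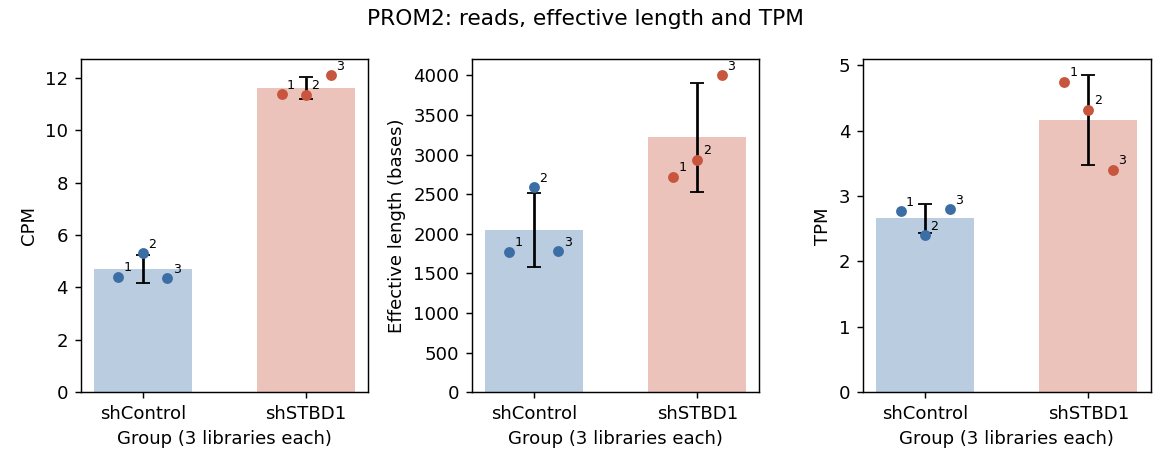
PROM2 in CPM, effective length (bases) and TPM, with 1 numbered point per library, bars at the group mean and error bars of 1 SD (n = 3). CPM and effective length are both higher in all 3 shSTBD1 libraries, and shSTBD1 3 pairs the longest effective length, 4001 bases, with the lowest TPM of its group, 3.40.

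PROM1 (ENSG00000007062; chromosome 4, 15963076 to 16084378, minus strand), the paralog of PROM2, had 28.6, 30.9 and 30.0 CPM in shControl and 29.5, 29.4 and 26.0 CPM in shSTBD1. The groups overlapped, and the log2 fold change was -0.08 ± 0.06 (SE). PROM1 exceeded PROM2 in each library. The ratio of their TPM was 3.39, 5.38 and 4.01 in shControl and 2.15, 2.43 and 3.15 in shSTBD1, so that every shSTBD1 library was below every shControl library.

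The 250 bases upstream of the first transcription start of each prominin are shown because the pair differs in CpG content, with each CpG in capitals (RefSeq, GRCh38).
PROM2, chr2:95274199-95274448 (+ strand): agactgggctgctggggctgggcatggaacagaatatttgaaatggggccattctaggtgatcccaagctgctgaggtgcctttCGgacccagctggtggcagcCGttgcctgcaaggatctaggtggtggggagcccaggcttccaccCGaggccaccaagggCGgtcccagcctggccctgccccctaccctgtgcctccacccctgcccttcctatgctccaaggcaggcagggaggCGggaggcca
PROM1, chr4:16084024-16084273 (minus strand): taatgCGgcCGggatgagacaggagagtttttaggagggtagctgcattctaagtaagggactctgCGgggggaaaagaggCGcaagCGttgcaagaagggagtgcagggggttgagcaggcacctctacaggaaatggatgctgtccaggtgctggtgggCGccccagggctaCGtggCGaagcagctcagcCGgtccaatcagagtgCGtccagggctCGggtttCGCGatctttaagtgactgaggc
The stretch of PROM2 held 5 CpGs, an observed over expected ratio of 0.191, and that of PROM1 held 13, a ratio of 0.664. Over 35116 promoters the median ratio was 0.558, and 40.9% were below 0.4. PROM1 has 3 further RefSeq starts, with ratios of 0.248, 0.584 and 0.903, and the starts of ALCAM, ALDH1A3, BMI1, CD24, CD44 and LGR4 had 0.637 to 1.03. The E-box CAGGTG, sought on both strands, was in 17.5% of all promoters. Counted per gene at any of its RefSeq starts, it was found for PROM1, ALCAM and CD24. PROM1 and CD24 have several starts, so this count and the share per promoter are not in the same unit. The letters AACCNGTT, a motif of the Grainyhead-like factors, were in 1.49% of all promoters and in 0 of the 8 genes with an entry.

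The 5 genes whose pattern over the 6 libraries was nearest to that of PROM2, by the root mean square difference of centred log2 CPM (0.137 to 0.152), were ENSG00000248112, SPTSSB, ARL2BP, KRT6A and ALG5. ARL2BP, which binds the small GTPase ARL2, had a log2 fold change of 1.24 ± 0.06 (SE). KRT6A, a keratin of stressed epithelia, had 1.11 ± 0.21 (SE), and ALG5, an enzyme of protein glycosylation, had 1.18 ± 0.11 (SE). Nearest to PROM1 were LINC02693, LDAH, PLA2G6, BAG2 and TTF1, with differences of 0.0109 to 0.0250 and log2 fold changes between -0.10 and -0.06. All 10 were picked for their likeness, so their fold changes follow from the choice.

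Among the transcripts of the other surface proteins, that of ALCAM was lower in shSTBD1. Those of CD44, CD24 and EPCAM were within 3% of their level in shControl. ALCAM (ENSG00000170017; chromosome 3, 105366909 to 105576900, + strand) had 111, 104 and 106 CPM in shControl and 97.0, 91.1 and 95.2 CPM in shSTBD1. Its groups did not overlap, and the log2 fold change was -0.18 ± 0.04 (SE). Of the 10 genes it carried the most matches to the shSTBD1 letters, 4 of GATTTCT, and a link between these and its level was not tested. CD44 (ENSG00000026508; chromosome 11, 35138882 to 35232402, + strand), with 1 match of GATTTCT and 1 of TGATTTC, had 397, 394 and 392 CPM in shControl and 386, 384 and 390 CPM in shSTBD1. Its groups did not overlap, but the difference was 1.90%, a log2 fold change of -0.03 ± 0.03 (SE), and in TPM the groups overlapped.

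EPCAM (ENSG00000119888; chromosome 2, 47345158 to 47387601, + strand) had 213, 215 and 221 CPM in shControl and 220, 222 and 226 CPM in shSTBD1. The groups overlapped, with a log2 fold change of 0.04 ± 0.03 (SE). CD24 (ENSG00000272398; chromosome 6, 106969831 to 106975627, minus strand) had 14.8, 16.7 and 15.1 CPM against 16.6, 15.2 and 15.6 CPM. Its groups overlapped too, with a log2 fold change of 0.02 ± 0.08 (SE). CD24 carried the letters TGATTTC of the shSTBD1 hairpin. The posterior SD that RSEM gave its counts was 0 in all 6 libraries, and of the 10 genes ALDH1A3 (8.13 to 10.43 counts) and BMI1 (4.45 to 8.69 counts) were those with a posterior SD above 0.

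**Figure D3:**
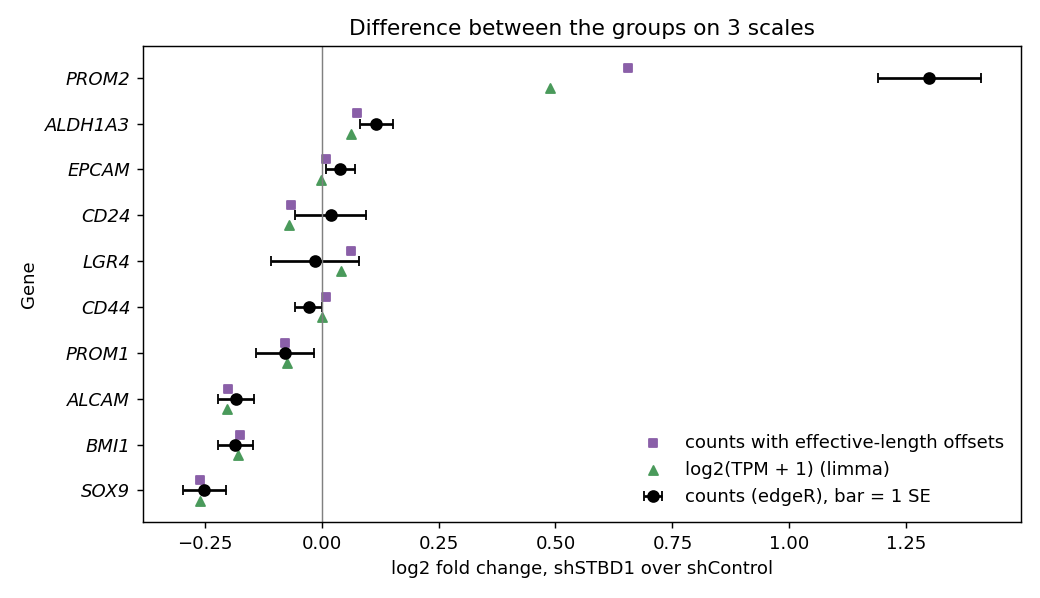
log2 fold change of shSTBD1 over shControl for each gene from counts (black points, bars of 1 SE), from counts with effective-length offsets (squares) and from log2(TPM + 1) (triangles). PROM2 lies at 1.30, 0.66 and 0.49 on the 3 scales, and SOX9, BMI1 and ALCAM lie between -0.26 and -0.17 on each. The 1 added to TPM shrinks the last value of PROM2, which was 0.62 with 0.1 added.

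The transcripts of the nuclear proteins SOX9 and BMI1 were both lower in shSTBD1. SOX9 (ENSG00000125398; chromosome 17, 72121020 to 72126416, + strand), a transcription factor of the crypt base, had 80.1, 77.1 and 81.8 CPM in shControl and 71.6, 64.5 and 64.8 CPM in shSTBD1. The groups did not overlap, and the log2 fold change was -0.25 ± 0.05 (SE), or 16.0% lower. SOX9 had the steadiest effective length of the 10 genes, 3640 to 3659 bases, so its value barely depended on the scale. BMI1 (ENSG00000168283; chromosome 10, 22321099 to 22331484, + strand) had 102, 107 and 108 CPM in shControl and 96.2, 90.6 and 92.5 CPM in shSTBD1. Its groups did not overlap either, with a log2 fold change of -0.18 ± 0.04 (SE). BMI1 shares exons with the read-through gene COMMD3-BMI1, to which RSEM gave 88.5 to 146 counts per library, beside 1760 to 2229 for BMI1. Per length the read-through gene weighed more, at 18.65 to 27.49 TPM beside 48.2 to 61.8 TPM for BMI1. The posterior SD of the read-through counts was 17.3% of those counts, so the split between the genes is uncertain. With the counts of both genes summed the log2 fold change was -0.17.

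ALDH1A3 (ENSG00000184254; chromosome 15, 100877714 to 100916626, + strand) had 170, 182 and 174 CPM in shControl and 184, 194 and 193 CPM in shSTBD1. The groups adjoined without overlap, with a log2 fold change of 0.12 ± 0.04 (SE), or 8.43% higher. It was 0.07 with the effective lengths as offsets and 0.06 on the log2(TPM + 1) scale. The antisense gene ALDH1A3-AS1 had 223 to 333 counts per library, and its log2 fold change was 0.18 ± 0.08 (SE). Whether the counting used strand is not given in the sources used here, so reads from the stretch they share could belong to either gene. LGR4 (ENSG00000205213; chromosome 11, 27365961 to 27472790, minus strand) had 15.1, 15.2 and 17.6 CPM in shControl and 18.2, 14.5 and 14.8 CPM in shSTBD1. Its groups overlapped fully, with a log2 fold change of -0.01 ± 0.09 (SE). LGR4 carried the letters GTGTCAC of the shControl hairpin, and a link between these and its level was not tested.

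The genes around these markers were read from 11 lists of paralogs, partners and tissue markers. Without the 10 genes these held 260 matched genes, 169 of them tested, of which 27 rose and 15 fell at an adjusted p of 0.05 (edgeR). That was 24.9% of the 169, beside 15.8% of all tested genes, of which 8.22% were higher and 7.54% lower. The share was 0% among markers of mature colon cells (11 tested) and among markers of other cell types (5 tested). The Polycomb list had 6.45%, the SOX family 12.5%, aldehyde dehydrogenases and retinoid genes 21.1% and prominin partners 26.3%. The share was 31.8% among partners of CD44 and CD24, 34.5% among stem cell markers and 42.9% among partners of EPCAM and ALCAM. It was 50% around the R-spondin receptors and 66.7% among epithelial markers. The lists were drawn up with results of these data known, so these shares are a description. Their median log2 fold change was 0.00. Of 29 tested stem cell and crypt base markers, 5 rose, 5 fell and 19 did not pass. PROCR, the protein C receptor, rose by 0.25 ± 0.05 (SE) on the log2 scale. The WNT target AXIN2 fell by 0.26 ± 0.06, and the RNA-binding protein MSI2 fell by 0.20 ± 0.03. The crypt base genes ASCL2, OLFM4 and HOPX had 0 counts in all 6 libraries.

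LGR5, the paralog of LGR4 that marks crypt base stem cells, had 0, 2 and 0 counts in shControl and 1, 1 and 5 in shSTBD1, too few to be tested. LGR6 had 9, 1 and 6 counts against 0, 3 and 0. Of the 3 receptors, LGR4 alone, with 291 to 333 counts, held enough reads for a comparison. Of 8 tested genes around the receptors, 4 fell and 0 rose (edgeR), with 5 at an unadjusted p under 0.05 and 3 called by DESeq2. The proteoglycan SDC4 fell by 0.28 ± 0.03 (SE) and the WNT coreceptor LRP5 by 0.22 ± 0.04. RNF43 and ZNRF3, the ubiquitin ligases that R-spondins remove from the membrane, fell by 0.17 ± 0.03 and 0.18 ± 0.06 on the count scale. In TPM the log2 ratio of the group means was -0.24 for RNF43 but -0.03 for ZNRF3, whose groups overlapped. The median log2 fold change of the 8 was -0.17.

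Among 19 tested aldehyde dehydrogenases and retinoid genes, 1 rose, 3 fell and 15 did not pass, with a median log2 fold change of -0.09. ALDH1A1 and ALDH1A2, the paralogs of ALDH1A3, had at most 1 and 3 counts in any library. ALDH1B1, a mitochondrial relative, had 106, 99.2 and 96.8 CPM in shControl and 96.2, 94.9 and 87.2 CPM in shSTBD1 (adjusted p = 0.0839, edgeR). CRABP2, which carries retinoic acid to its receptors, rose by 0.31 ± 0.03 (SE). CYP26B1, which degrades retinoic acid, fell by 0.36 ± 0.08, ALDH2 by 0.32 ± 0.06, and the receptor RXRA by 0.22 ± 0.05. CYP26B1 had 26.3, 35.5 and 33.3 CPM in shControl and 24.6, 24.6 and 25.1 CPM in shSTBD1, so shControl 1 lay near shSTBD1. In TPM the groups overlapped for CYP26B1 and RXRA, with log2 ratios of -0.50 and -0.16. Those of ALDH2 did not, with -0.34.

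All 31 listed genes of the Polycomb complexes, in which BMI1 acts, were tested: 2 rose, 0 fell and 29 did not pass (edgeR, with 6 at an unadjusted p under 0.05 and 2 called by DESeq2). CBX6, which reads methylated histone H3, rose by 0.27 ± 0.04 (SE), and JARID2, an accessory subunit of complex 2, by 0.20 ± 0.05. The catalytic partners of BMI1 had log2 fold changes of 0.08 ± 0.04 (RING1) and 0.09 ± 0.05 (RNF2). The relatives of BMI1 had -0.06 ± 0.06 (PCGF2), -0.08 ± 0.04 (PCGF3), -0.01 ± 0.04 (PCGF5), 0.02 ± 0.05 (PCGF6) and 0.21 ± 0.11 (PCGF1). None of these 7 passed the test. In the SOX family, SOX4 fell by 0.40 ± 0.05, from 215 to 248 CPM in shControl to 167 to 179 CPM in shSTBD1, and the other 7 tested genes did not pass.

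Of 22 tested partners of CD44 and CD24, 4 rose, 3 fell and 15 did not pass. SLC7A11, a subunit of the cystine transporter that CD44 can stabilise, fell by 0.69 ± 0.05 (SE), and CEMIP, which takes part in hyaluronan breakdown, by 0.40 ± 0.11. FYN, a kinase of the SRC family, rose by 0.52 ± 0.09, and the hyaluronidase HYAL1 by 0.46 ± 0.12. ESRP1 and ESRP2, which control the splicing of CD44, rose by 0.26 ± 0.03 and 0.15 ± 0.04 on the count scale, and the splice forms of CD44 were not analysed here. In TPM, ESRP1 kept a log2 ratio of 0.26, while ESRP2 had 31.3 TPM in both groups, with an effective length 1.09-fold longer in shSTBD1. Of 14 tested partners of EPCAM and ALCAM, 6 rose, 0 fell and 8 did not pass (edgeR, with 6 at an unadjusted p under 0.05 and 5 called by DESeq2). Among them were the protease PRSS8 (0.21 ± 0.06), the adhesion protein MCAM (0.18 ± 0.05), CD9 (0.15 ± 0.04), CLDN7 (0.13 ± 0.04) and CD151 (0.12 ± 0.03). In TPM the log2 ratios of PRSS8 and CLDN7 were 0.09 and 0.06, with overlapping groups.

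**Figure D4:**
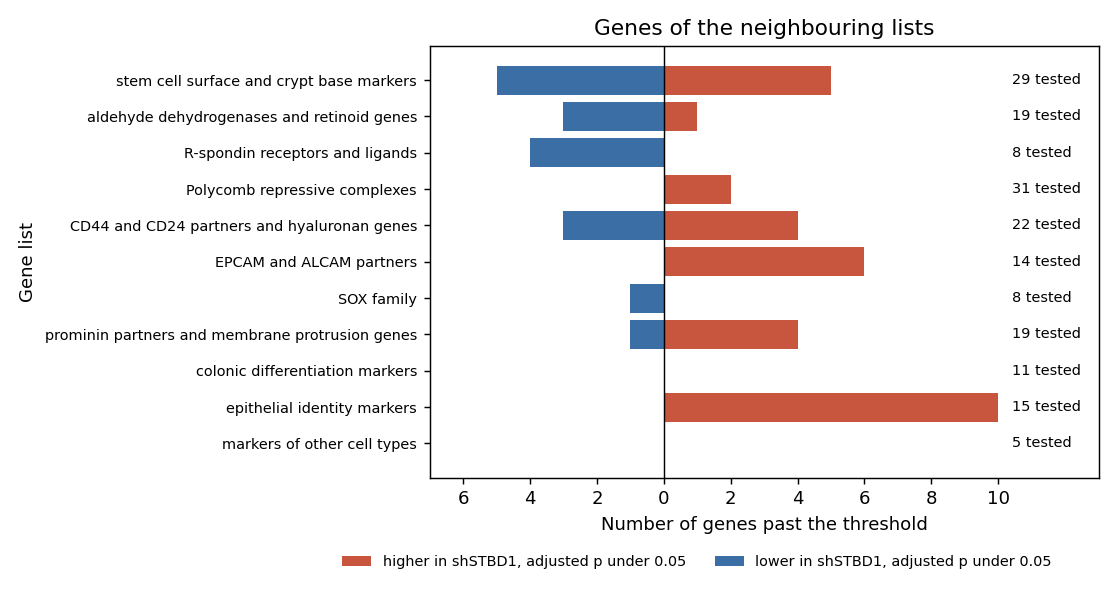
Number of genes in each of the 11 lists that passed an adjusted p of 0.05, higher (right) or lower (left) in shSTBD1, with the number tested at the right. The epithelial list has 10 of 15 genes higher, the R-spondin list 4 of 8 lower, and a gene can be in more than 1 list.

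Of 15 tested markers of epithelial identity, 10 rose, 0 fell and 5 did not pass (edgeR, with 13 at an unadjusted p under 0.05 and 10 called by DESeq2), and their median log2 fold change was 0.20. CDH1 (E-cadherin) rose by 0.29 ± 0.04 (SE), KRT19 by 0.28 ± 0.03 and GRHL2, a regulator of epithelial junction genes, by 0.54 ± 0.06. EPCAM itself, at 0.04 ± 0.03, and ALCAM, at -0.18 ± 0.04, lay below these. The summed TPM of the 17 listed epithelial genes was 3200 to 3224 in shControl and 3624 to 3763 in shSTBD1, and its part in the differences of the 10 genes was not tested. Among 19 tested partners of the prominins and genes of membrane protrusions, 4 rose, 1 fell and 14 did not pass. GRHL3, an epithelial transcription factor, rose from 7.23 to 7.53 CPM in shControl to 18.6 to 22.2 CPM in shSTBD1 (1.44 ± 0.09 SE), and GRHL1 by 0.27 ± 0.08 (a log2 ratio of 0.44 in TPM). EPS8, an actin regulator of microvilli, fell by 0.22 ± 0.04, and EZR, the microvillar linker that also binds CD44, had -0.03 ± 0.04. Of 39 markers of mature colon cells, 28 were not tested for lack of counts, among them CEACAM5, CDX1 and TFF3 with 0 counts in all 6 libraries. The 11 tested ones gave 0 calls (edgeR; 4 at an unadjusted p under 0.05, and 0 with DESeq2).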

How the data were processed

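RNA-seq of HCT116 cells was analysed in 3 shControl and 3 shSTBD1 libraries, grouped by the sample titles. Per the submitters' processing notes and the methods, STAR 2.7.1a mapped the reads to hg38 on gene models of Ensembl release 93, and RSEM 1.3.1 quantified the genes. The deposited expected counts are not normalized, and the deposited TPM values, computed by the authors with RSEM, are per effective length and sum alike in all libraries. The other deposited columns used were effective length and the posterior SD of the counts.

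The expected counts were rounded, filtered with filterByExpr, scaled by TMM and compared with edgeR 4.0.16 (R 4.3.3; quasi-likelihood F-test, Benjamini-Hochberg over all tested genes, threshold 0.05). The SE was derived from the log2 fold change and F. With totals of 17689097 to 21668274 counts per library, precision for PROM2 and LGR4 is limited by counts of 77 to 333. The scripts were tested on simulated data. Alternatives were DESeq2 1.42.0, upper-quartile factors, scaling to totals only, testing every gene or those with at least 10 counts per library, unrounded counts, offsets for effective length, limma 3.58.1 on log2(TPM + 1) and log2(TPM + 0.1), the replicate number as a block, and leaving out each library. Adding COMMD3-BMI1 to BMI1 was chosen after seeing the data.

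The 10 genes and the 11 lists were chosen with earlier results of these data known. Named are the 10 genes, STBD1, tested paralogs and complex partners, up to 4 called genes per list with the largest changes and no overlap, up to 3 absent markers, and the 5 genes nearest to PROM1 and PROM2 among those with a mean of at least 1 CPM. ESRP2, EZR, CLDN7, CD151, COL1A1 and the genes overlapping a member were named after their values were seen. An item that this rule would name is not reported here. Log2 CPM used a prior count of 2. Gene positions came from GENCODE release 44, and promoters from RefSeq, which had entries for 8 of the 10 genes. P-values measure the spread between cultures the study calls biological replicates.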

Additional observations from a re-analysis of the deposited data

How the results depend on the processing

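The order of the 10 mean levels over both groups was the same in all 7 alternatives run for it, CPM per kilobase of effective length and leaving out each library. The number of all genes called, 2453 of 15566, was 511 under offsets for effective length, 292 by limma on log2(TPM + 1) and 290 on log2(TPM + 0.1), and 1409 to 2577 with 1 library left out (1570, 1409 and 1497 without shSTBD1 1, 2 and 3). Of the 10 genes, 5 passed in the fit as reported, 1 (SOX9) once effective length entered as an offset and 0 by limma on either TPM scale, where 4 had an unadjusted p under 0.05, and 4 to 5 with 1 library left out. ALDH1A3 was the gene lost without shControl 3, shSTBD1 2 or shSTBD1 3. PROM2, SOX9, BMI1, ALCAM and ALDH1A3 kept their direction in every alternative. ALDH1A3 had 0.12 as reported, 0.07 with the length offsets and 0.06 on both TPM scales. The log2 fold change of PROM2 ran from 1.25 to 1.40 with 1 library left out, and was 0.66 with effective-length offsets, 0.49 on log2(TPM + 1) and 0.62 on log2(TPM + 0.1). The effective-length terms themselves, 2.25-fold between the extreme libraries for PROM2, enter these 3 alternatives. The value of 0.49 is also shrunk by the 1 added to TPM. Of the listed genes around them, 42 were called as reported, 14 under the length offsets, 6 and 6 by limma, and 28 to 42 with 1 library left out. STBD1 had -0.54 (adjusted p = 0.0646) and -0.65 (adjusted p = 0.0672) with limma on the 2 TPM scales, and -0.76 to -0.57 with 1 library left out.

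Under a replicate block, 2579 genes, 5 of the 10 and 45 listed genes were called. The deviations of libraries with the same number correlated at 0.071, 0.068 and -0.008, so the numbers were not read as pairs. LGR5, LGR6, ALDH1A1 and ALDH1A2 had counts of 9 or fewer in each library and were left out of the test. Whether depth or near-absent transcripts gave these low counts was not tested.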
